A study of Mus musculus with 6 samples.

Results

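Genes of protein folding and the unfolded protein response in the endoplasmic reticulum (ER) were followed in mouse hippocampus with and without Phf8, which encodes a histone demethylase. The set was given as a list of 40 genes, and every probe set that the array annotation assigns to exactly 1 of them was taken. All 40 genes were measured above the filter on low signals, among 12903 genes tested in all. They comprise 17 chaperones and folding enzymes, 4 genes of the signalling branches (3 stress sensors and Xbp1), 7 genes of the PERK-ATF4 arm, 9 genes of ER-associated degradation and 3 genes of the translocation channel. The 40 genes carry 95 probe sets, of which 82 passed the filter and 13 did not.

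RNA came from hippocampus of 3 wild-type (WT) and 3 Phf8 knockout (KO) samples on a C57BL/6 background, labelled as 10 weeks old, with 1 Affymetrix mouse array for each. Per the methods, the mice used in the study were hemizygous Phf8-/Y males and their WT littermates. In that allele the exons coding for the JmjC demethylase domain were removed by crossing to EIIa-Cre, and the line was then bred onto C57BL/6 J. The methods speak of hippocampus of 3 mice as a sample. Whether an array holds 1 mouse or a pool is therefore not settled, and the p-values measure the spread between these 6 arrays. The values are log2 MAS5 signals, so a difference of 1 is a doubling of the signal, and the signals of different genes are not compared with each other.

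Secreted and membrane proteins fold in the ER with the help of chaperones, disulfide isomerases and lectins that bind glycoproteins. When unfolded proteins build up, the sensors ATF6, IRE1 (encoded by Ern1) and PERK (encoded by Eif2ak3) start the unfolded protein response. ATF6 and the spliced form of XBP1 raise chaperone and degradation genes, while PERK slows translation and favours ATF4, which raises genes of amino acid supply and the factor CHOP. Neurons depend on this system for the receptors, channels and adhesion proteins of their synapses.

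The Phf8 probe set had log2 signals of 9.90, 9.66 and 9.73 in WT and 8.23, 8.55 and 7.99 in KO, so all 3 KO arrays were below all 3 WT arrays (KO minus WT -1.51, limma adjusted p = 0.0527). The array of KO replicate 3 was unlike the others. It correlated with them at 0.925 to 0.940 (a description across genes that share each array). Thalamus markers were high on this array. The sum of the signals of the 9 measured thalamus markers (of 11) was 34479 on that array, against 4184 to 4844 in WT and 5655 and 6228 on the other KO arrays. The sum over 9 measured markers of hippocampal neurons (of 10) ran from 30532 to 33400 in WT and was 29071, 28553 and 18819 in KO replicates 1, 2 and 3. The 4 measured red blood cell markers (of 9) summed to 1825 to 2076 in WT and to only 119.9 to 233.7 in KO. Values without KO replicate 3 are therefore given beside those with all arrays.

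Most chaperones of the ER were lower on average in KO hippocampus, with a median difference of -0.29, while the medians of the PERK-ATF4 arm, of degradation and of translocation lay between -0.04 and 0.05. Without KO replicate 3 the chaperone median was -0.34, and these 3 medians were -0.09, -0.17 and 0.03. With all arrays, 30 of the 40 genes were lower and 10 higher on average in KO, where 48.1% of all genes tested were lower. The median difference was -0.12 over the 40 genes and 0.01 over all genes. The members that stood apart from WT were thus all on the lower side. On all 3 KO arrays 12 members were below every WT array, as were 7.13% of all genes, and 0 members were above, as were 9.56% of all genes. Counts by p and by fold ran the same way. An unadjusted p under 0.05 in limma was reached by 9 members that were lower (2.79% of all genes) and by 0 that were higher (4.69% of all genes). At 1.5-fold, 4 members were lower (2.03% of all genes) and 0 higher (4.15% of all genes).

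With all 6 arrays, 0 members passed an adjusted p of 0.05 in limma over 12903 genes, where 8 genes passed, all of them lower (0.062%). The lowest adjusted p among the members was 0.0972, that of Pdia6. Without KO replicate 3, 4 members passed and were lower, namely Hspa5, Pdia6, Manf and Sdf2l1, against 40 lower genes in all (0.31%) and 53 in either direction (0.411%). Leaving out any other single array gave 0 members. With array weights in limma, 3337 genes passed (25.9%), 1350 of them lower (10.5%), and 17 members passed. That fit gave KO replicate 1 a weight of 18.1 and KO replicate 3 a weight of 0.0951, so it rests largely on 1 KO array.

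**Figure D1:**
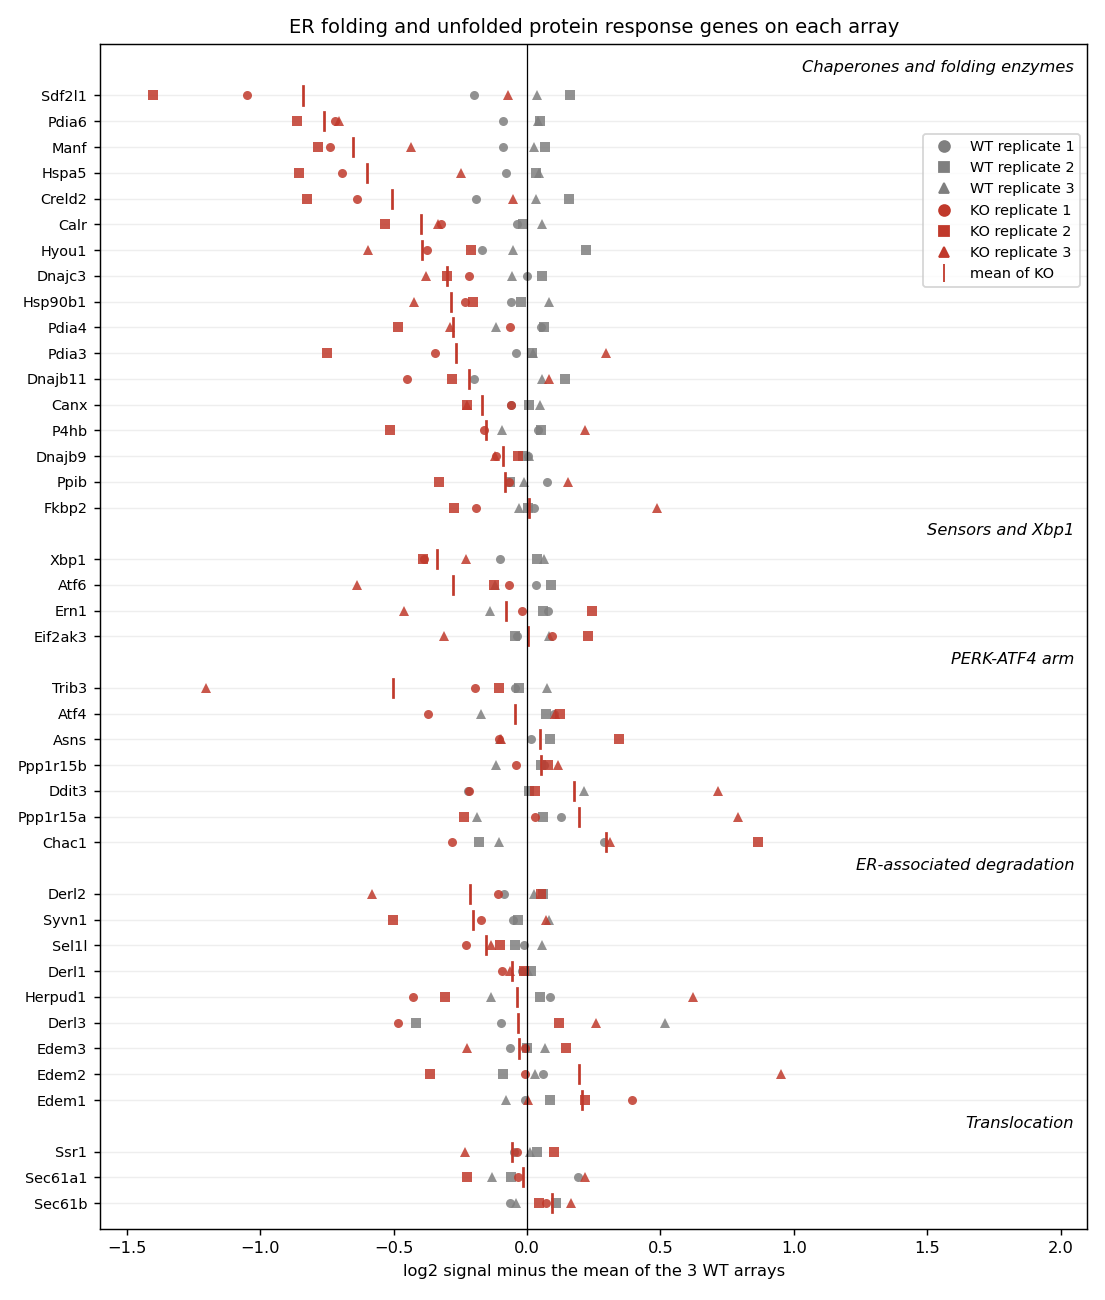
Deviation of each of the 40 genes from its WT mean on every array (x axis, log2 signal), by class, with WT arrays in grey, KO arrays in red and the KO mean as a red bar. In the chaperone class 16 of 17 KO means lie left of 0, while in the PERK-ATF4 arm 2 of 7 do.

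Members of a class often carry the same control sequence near the start of the gene, so promoters were searched in the RefSeq promoter table (GRCm38.p6, 250 bases before to 50 after each start). It holds 34 of the 40 genes; Manf, Hyou1, Atf6, Ppp1r15b, Derl1 and Sec61a1 were not in it. The ER stress element (ERSE), known as a site of ATF6 with NF-Y, reads CCAAT, 9 bases of any kind and CCACG. ERSE-II reads ATTGG, 1 base of any kind and CCACG. The site searched for XBP1 was TGACGTGG, and that for ATF4 with a C/EBP partner was TGATGNAA. Both strands were searched for exact matches. Since ERSE, ERSE-II and the XBP1 site share the letters CCACG or their reverse, they can overlap, but no member holds more than 1 of the 3 kinds.

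An ERSE was found in the promoters of 7 of 15 chaperones in the table (46.7%), 2 of 8 degradation genes (25.0%) and 0 of 6 genes of the PERK-ATF4 arm, against 37 of all 27025 genes in the table (0.137%). ERSE-II was found in Herpud1 and Dnajb11 (5.88% of the members, 0.0444% of all genes). The ATF4 site was found in 3 of 6 genes of the PERK-ATF4 arm, namely Asns, Chac1 and Trib3, and in Herpud1, against 4.51% of all genes. The XBP1 site was found in 0 of 34 members (0.714% of all genes). These matches describe letters in the window and do not show that a factor was bound in this tissue.

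The windows below show the elements next to which the differences are read, with the motifs in capitals and all coordinates in GRCm38.p6. Hspa5 and Pdia6 carry an ERSE on the strand of the gene, at chr2:34772020-34772048 (plus strand) and chr12:17266486-17266514 (plus strand). Calr carries it in the reverse orientation at chr8:84847070-84847098 (minus strand). Hsp90b1 holds an ERSE in each orientation at chr10:86705528-86705661 (minus strand). Syvn1, a degradation gene, has the element at chr19:6046527-6046555 (plus strand). Herpud1 is shown at chr8:94386312-94386392 (plus strand), since a reversed ATF4 site and an ERSE-II lie close together in it. Asns is shown at chr6:7693220-7693237 (minus strand) as an example of the ATF4 site.
Hspa5: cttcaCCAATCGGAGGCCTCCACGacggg
Pdia6: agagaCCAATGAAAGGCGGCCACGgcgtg
Calr: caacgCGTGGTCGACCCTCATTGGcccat
Hsp90b1: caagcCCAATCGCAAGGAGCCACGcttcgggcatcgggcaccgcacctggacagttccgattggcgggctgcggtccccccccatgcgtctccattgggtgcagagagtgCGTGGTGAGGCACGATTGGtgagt
Syvn1: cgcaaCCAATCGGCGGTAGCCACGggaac
Herpud1: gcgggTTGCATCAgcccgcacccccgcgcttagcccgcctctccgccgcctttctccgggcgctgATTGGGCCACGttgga
Asns: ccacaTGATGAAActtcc

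The chaperones and folding enzymes were lower in KO for 16 of 17 genes, with a median difference of -0.29, or -0.34 and 17 of 17 without KO replicate 3. Per array, their median deviation from the WT mean was -0.06, 0.05 and 0.02 in WT and -0.32, -0.48 and -0.22 in KO replicates 1, 2 and 3. Each KO median was thus below each WT median. KO replicate 1 was below the lowest WT array for 16 of the 17 genes, KO replicate 2 for 17 and KO replicate 3 for 10. Of all 12903 genes tested, 3378, 3909 and 5382 were below it on these arrays, so the background was highest on KO replicate 3. The KO arrays spread more than the WT arrays for 16 of the 17, as they did for 80.0% of all genes. In whole tissue, fewer cells of a type and less RNA per cell cannot be told apart.

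Hspa5 encodes BiP, the HSP70 of the ER that binds nascent chains and holds the stress sensors inactive. Its log2 signals were 13.21, 13.32 and 13.34 in WT and 12.60, 12.44 and 13.04 in KO. All KO arrays were below all WT arrays, and KO replicate 3 was the closest to WT. The difference was -0.60 (standard error 0.15, 1.51-fold lower, adjusted p = 0.531 from limma), and -0.77 without KO replicate 3 (adjusted p = 0.00319). Its 2 other probe sets differed by -0.75 and -0.38, again with every KO array below every WT array.

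Pdia6 encodes a disulfide isomerase that acts with BiP. It had log2 signals of 11.32, 11.46 and 11.46 in WT and 10.70, 10.55 and 10.71 in KO. The KO arrays lay close together, well below WT, KO replicate 3 included. The difference was -0.76 (standard error 0.10, 1.70-fold lower, adjusted p = 0.0972 from limma), and -0.79 without KO replicate 3 (adjusted p = 0.00746). A second, dim Pdia6 probe set differed by -0.24 and its groups overlapped.

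Manf encodes a small ER protein that is induced by ER stress, binds BiP and is secreted as a trophic factor. Its log2 signals were 11.71, 11.87 and 11.82 in WT and 11.06, 11.02 and 11.37 in KO. Again no KO array reached the WT arrays. The difference was -0.65 (standard error 0.12, 1.57-fold lower, adjusted p = 0.312 from limma), and -0.76 without KO replicate 3 (adjusted p = 0.00475).

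Sdf2l1, an ER protein that works with the co-chaperone ERdj3, had log2 signals of 9.58, 9.94 and 9.82 in WT and 8.73, 8.38 and 9.71 in KO. KO replicates 1 and 2 were below WT, and KO replicate 3 lay within the WT range. The difference was -0.84 (standard error 0.32, adjusted p = 0.643 from limma), and -1.22 without KO replicate 3 (adjusted p = 0.0128). Creld2, an ER stress-induced folding factor, had the same order of arrays. It had log2 signals of 9.34, 9.69 and 9.57 in WT and 8.90, 8.71 and 9.48 in KO (difference -0.50, adjusted p = 0.659). Without KO replicate 3 its difference was -0.73 (adjusted p = 0.0701).

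**Figure D2:**
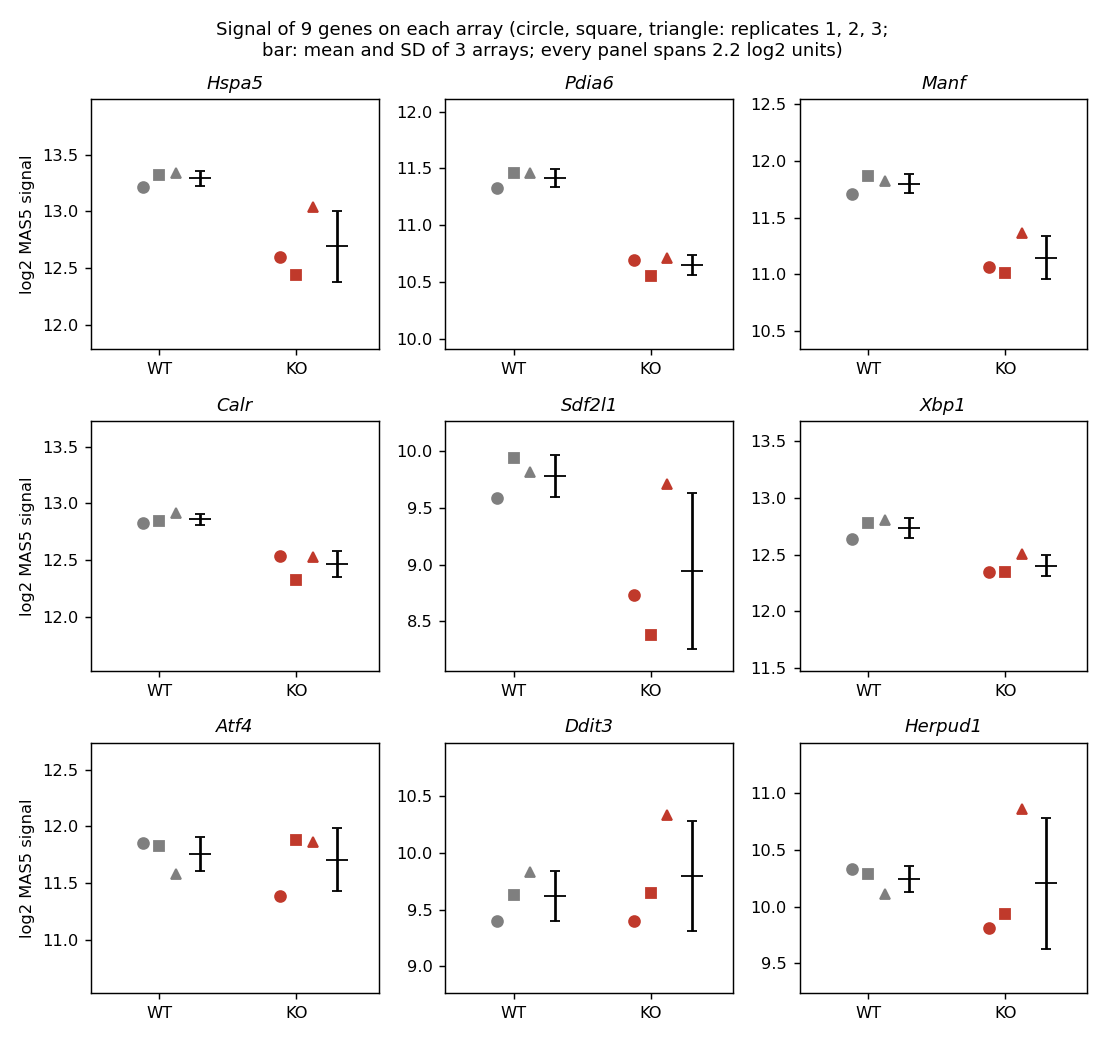
Log2 MAS5 signal (y axis, each panel spanning the same range) of 9 genes on the 3 WT and 3 KO arrays, where black bars give each group's mean and SD. Hspa5, Pdia6, Manf, Calr and Xbp1 show no overlap, KO replicate 3 of Sdf2l1 (9.71) lies within the WT range, and the groups of Atf4, Ddit3 and Herpud1 overlap.

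The lectin chaperones hold newly made glycoproteins until they are folded. Calr, the soluble one, had log2 signals of 12.82, 12.85 and 12.92 in WT and 12.54, 12.33 and 12.53 in KO (difference -0.40, standard error 0.09, adjusted p = 0.425 from limma). Its 2 other probe sets differed by -0.46 and -0.55, and in all 3 probe sets every KO array was below every WT array. The difference of Calr was -0.43 without KO replicate 3 (adjusted p = 0.0636). Canx, the membrane-bound one, had 13.02, 13.09 and 13.13 in WT and 13.02, 12.86 and 12.86 in KO (difference -0.17, adjusted p = 0.668, and -0.14 without KO replicate 3). Its groups all but touched, since WT replicate 1 and KO replicate 1 were alike to the second decimal.

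Hsp90b1, the HSP90 of the ER, had log2 signals of 12.95, 12.99 and 13.09 in WT and 12.78, 12.81 and 12.59 in KO (difference -0.29, standard error 0.09, adjusted p = 0.586 from limma). Hyou1, which exchanges nucleotide on BiP, had 10.24, 10.63 and 10.36 in WT and 10.04, 10.20 and 9.82 in KO (difference -0.39, standard error 0.15, adjusted p = 0.659). These differences were -0.22 and -0.29 without KO replicate 3. In the probe sets used, KO replicate 3 was the lowest array in both genes. In those of Hspa5, Manf and Sdf2l1 it was the KO array closest to WT. Other probe sets had another order. KO replicate 3 was the lowest array (9.47) in the dimmest of Hspa5. KO replicate 2 was the lowest in a second one of Hsp90b1 (11.43, difference -0.23, no overlap) and of Hyou1 (6.65, difference -0.22, overlapping groups).

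The DnaJ co-chaperones of BiP differed among themselves. Dnajc3 had log2 signals of 11.32, 11.38 and 11.26 in WT and 11.10, 11.02 and 10.94 in KO (difference -0.30, standard error 0.10, adjusted p = 0.589 from limma). Of its 4 dimmer probe sets, 3 were below WT on every KO array, with differences of -0.37, -0.35 and -0.91, and 1 was higher by 0.15 with overlapping groups. Dnajb9 was nearly level, with 11.84, 11.82 and 11.84 in WT and 11.72, 11.80 and 11.71 in KO (difference -0.09, adjusted p = 0.774). Its groups did not overlap, and its WT arrays had an SD of only 0.01. Dnajb11 differed by -0.22, and its KO replicate 3 lay within the WT range. The differences of Dnajc3, Dnajb9 and Dnajb11 were -0.26, -0.07 and -0.37 without KO replicate 3.

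The other folding enzymes had overlapping groups. The disulfide isomerases Pdia3, Pdia4 and P4hb differed by -0.27, -0.28 and -0.15, and in Pdia3 and P4hb KO replicate 3 was above every WT array. In a second, dimmer Pdia3 probe set (difference -0.28) KO replicate 3 was instead the lowest array (8.36). The prolyl isomerases Ppib and Fkbp2 differed by -0.08 and 0.01, and in both KO replicate 3 was the highest of the 6 arrays. Without KO replicate 3 these 5 genes differed by -0.55, -0.27, -0.34, -0.20 and -0.23.

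Read beside the promoter windows, all 7 chaperones with an ERSE were lower, with differences from -0.76 (Pdia6) to -0.17 (Canx) and a median of -0.40. In 6 of the 7, Creld2 being the exception, every KO array was below every WT array, as in 7.13% of all genes tested. Canx counts among the 6 by a narrow gap, and its other kept probe sets (-0.38 and -0.05) had overlapping groups. Of the 8 chaperones in the table without an ERSE (Dnajb11 holds an ERSE-II), 7 were lower (median -0.18), and the groups did not overlap in 1, Dnajb9. Sdf2l1, with the lowest difference of all 40 genes, is among those without an ERSE in this window. Of the degradation genes with an ERSE, Syvn1 differed by -0.20 and Derl3 by -0.04. These are descriptions of few genes, and no difference between genes with and without the element was tested.

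Xbp1, the factor that IRE1 activates by splicing its RNA, was lower on all KO arrays, while each of the 3 sensor genes had overlapping groups. Xbp1 had log2 signals of 12.64, 12.78 and 12.80 in WT and 12.35, 12.35 and 12.51 in KO. The difference was -0.34 (standard error 0.09, adjusted p = 0.550 from limma), and -0.39 without KO replicate 3 (adjusted p = 0.0657). Its other kept probe sets differed by -0.54, -0.56 and -0.43, and only the dimmest of them had overlapping groups. The probe set with a difference of -0.54 passed over all probe sets without KO replicate 3 (adjusted p = 0.0202). Their position relative to the spliced segment was not analysed here.

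Atf6, the sensor that is itself cut into a transcription factor, had log2 signals of 10.63, 10.68 and 10.47 in WT and 10.53, 10.47 and 9.96 in KO (difference -0.28, standard error 0.17, adjusted p = 0.700 from limma). The difference was -0.10 without KO replicate 3, so most of it came from that array. Ern1 had 8.75, 8.73 and 8.53 in WT and 8.65, 8.91 and 8.21 in KO (difference -0.08, adjusted p = 0.922). Eif2ak3 had 9.68, 9.68 and 9.80 in WT and 9.81, 9.95 and 9.41 in KO (difference 0.00, adjusted p = 0.997). In both, KO replicate 3 was the lowest array and KO replicate 2 the highest, and without KO replicate 3 the differences were 0.11 and 0.16. The median of the 4 genes was -0.18 with all arrays and 0.01 without that array.

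The PERK-ATF4 arm showed no common direction, with 2 of 7 genes lower and a median difference of 0.05 (-0.09 and 4 of 7 without KO replicate 3). Atf4, the factor of this arm, had log2 signals of 11.85, 11.82 and 11.58 in WT and 11.38, 11.88 and 11.86 in KO (difference -0.05, standard error 0.16, adjusted p = 0.946 from limma). In this probe set KO replicate 1 was the lowest array and the other KO arrays were the highest. A second, dimmer Atf4 probe set had another order. It differed by -0.22 with overlapping groups, KO replicate 3 was its lowest array, and a WT array was its highest. Ddit3, which encodes CHOP, had 9.40, 9.63 and 9.83 in WT and 9.40, 9.65 and 10.34 in KO (difference 0.18, standard error 0.25, adjusted p = 0.855). Its KO replicates 1 and 2 lay close to WT replicates 1 and 2, and the difference was -0.09 without KO replicate 3.

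Asns, the asparagine synthetase gene whose ATF4 site is shown above, had log2 signals of 11.74, 11.81 and 11.62 in WT and 11.62, 12.07 and 11.63 in KO (difference 0.05, standard error 0.14, adjusted p = 0.935 from limma). Only KO replicate 2 was above the WT range, and the difference was 0.12 without KO replicate 3. Trib3, a pseudokinase gene, was the member of this arm with no overlap, at 5.94, 5.96 and 6.07 in WT and 5.79, 5.89 and 4.79 in KO (difference -0.50, standard error 0.38, adjusted p = 0.733). These signals lie at the filter levels of the arrays, which were 5.74 to 6.05, so the size of that difference depends on the background. Its lowest signal was that of KO replicate 3, without which the difference was -0.15. Chac1, which degrades glutathione, was higher by 0.30, or 0.29 without KO replicate 3. The phosphatase subunit genes Ppp1r15a and Ppp1r15b were higher by 0.20 and 0.05, and all 3 genes had overlapping groups. In Ppp1r15a KO replicate 3 was the array above WT (8.18), and without it the difference was -0.10, while that of Ppp1r15b was 0.02.

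Degradation genes, which recognise misfolded proteins and carry them to the proteasome, were lower in 7 of 9 cases, but by little, with a median of -0.04 (-0.17 without KO replicate 3). Sel1l, the adaptor of the HRD1 ubiquitin ligase, was the one with no overlap, at log2 signals of 11.84, 11.81 and 11.91 in WT and 11.62, 11.75 and 11.72 in KO (difference -0.16, standard error 0.09, adjusted p = 0.684 from limma). Of its 4 other kept probe sets, all lower on average, 1 had every KO array below WT (difference -0.44). Syvn1, the ligase itself, differed by -0.20 with overlapping groups. These 2 genes differed by -0.17 and -0.34 without KO replicate 3.

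Herpud1, the ligase scaffold whose promoter window holds both an ATF4 site and an ERSE-II, had log2 signals of 10.33, 10.29 and 10.11 in WT and 9.82, 9.94 and 10.86 in KO. In this probe set KO replicates 1 and 2 were below every WT array and KO replicate 3 was above them. The mean difference was thus -0.04, or -0.37 without KO replicate 3 (adjusted p = 0.202 from limma). A second, dimmer Herpud1 probe set differed by 0.11, or -0.36 without KO replicate 3. There KO replicates 1 (9.89) and 3 (10.52) were above every WT array, and only KO replicate 2 (8.33) was below. The derlins, membrane proteins of the exit channel, differed by -0.06 (Derl1), -0.21 (Derl2) and -0.04 (Derl3, a dim signal). The value of Derl2 rested on KO replicate 3, and without that array the 3 genes differed by -0.05, -0.03 and -0.18. Dimmer kept probe sets of Derl1 differed by -0.34, -0.15 and -0.29, and in the first of these every KO array was below every WT array. A dimmer one of Derl2 differed by 0.08. Edem1, Edem2 and Edem3, which mark misfolded glycoproteins by trimming mannose, differed by 0.21, 0.19 and -0.03. Without KO replicate 3 these were 0.31, -0.19 and 0.07, so that Edem2 and Edem3 turned in direction. Dimmer kept probe sets of Edem1 and Edem3 differed by -0.08 and -0.35, with overlapping groups.

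The channel through which new proteins enter the ER is formed by the SEC61 complex. Sec61a1, its pore subunit, differed by -0.01, Sec61b by 0.09 and Ssr1, a subunit of the associated TRAP complex, by -0.06. In these probe sets the KO and WT arrays overlapped in all 3 genes. The differences of the 3 genes were -0.13, 0.06 and 0.03 without KO replicate 3. Dimmer probe sets varied. One of Sec61a1 (-0.23) and one of Ssr1 (-0.43) had every KO array below every WT array. Another of Ssr1 was higher by 0.35 with overlapping groups.

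**Figure D3:**
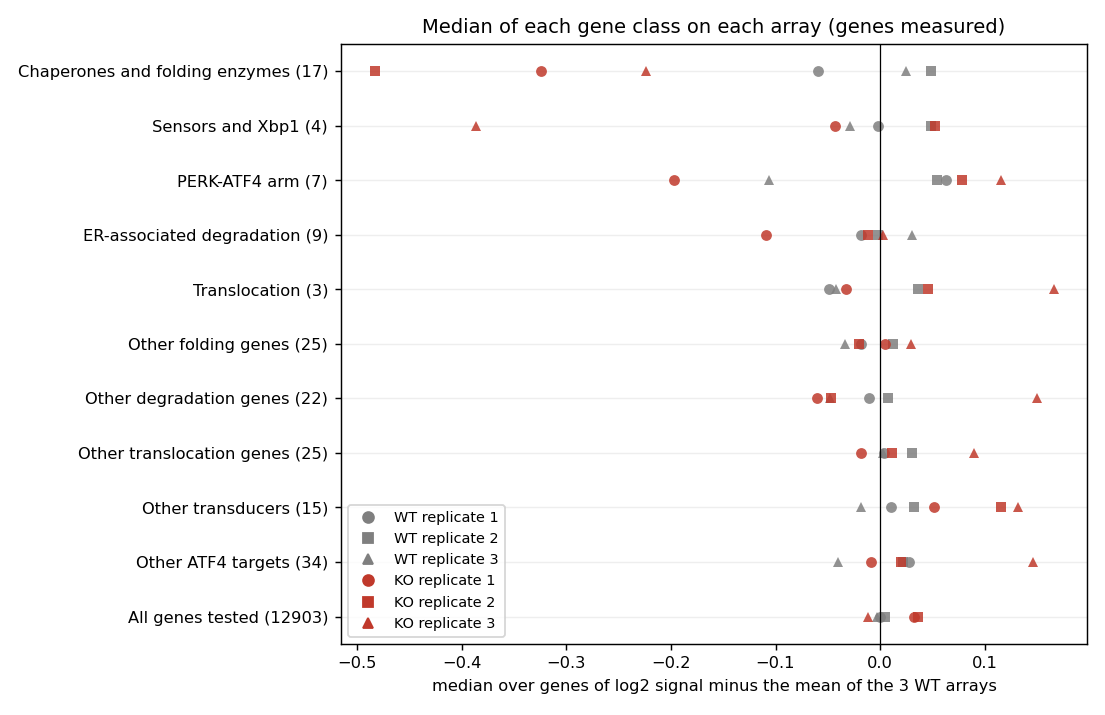
Median deviation from the WT mean over the genes of each class (x axis, log2 signal), for each array; parentheses give how many genes were measured. The chaperones lie at -0.32, -0.48 and -0.22 on the KO arrays and between -0.06 and 0.05 on the WT arrays, and all genes tested lie near 0.

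Several chaperones and Xbp1 had more than 1 probe set that was lower in KO, while 8 of the 17 chaperones had only 1 kept probe set. Of the 82 kept probe sets, 65 were lower and 17 higher on average, and 26 had every KO array below every WT array, as had 7.83% of all 27408 kept probe sets. An unadjusted p under 0.05 in limma was reached by 19, all lower (3.06% of all lower). Over all probe sets 0 of the 82 passed an adjusted p of 0.05 (0.0219% of all), with a lowest value of 0.188, and 6 passed without KO replicate 3 (0.193% of all, lower). These 6 belong to Hspa5 (2), Pdia6, Manf, Sdf2l1 and Xbp1, and the genes are those of the gene-level fit plus Xbp1. In the chaperones 29 of 32 probe sets were lower and 17 had no overlap. In the PERK-ATF4 arm 3 of 9 were lower and 1 had no overlap, and in the degradation genes 17 of 21 were lower and 3 had no overlap. In the translocation genes 8 of 11 were lower and 2 had no overlap. Among the sensors and Xbp1, 8 of 9 were lower and 3 had no overlap. Probe sets of a gene read the same RNA and are not replicates of the genotype.

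**Figure D4:**
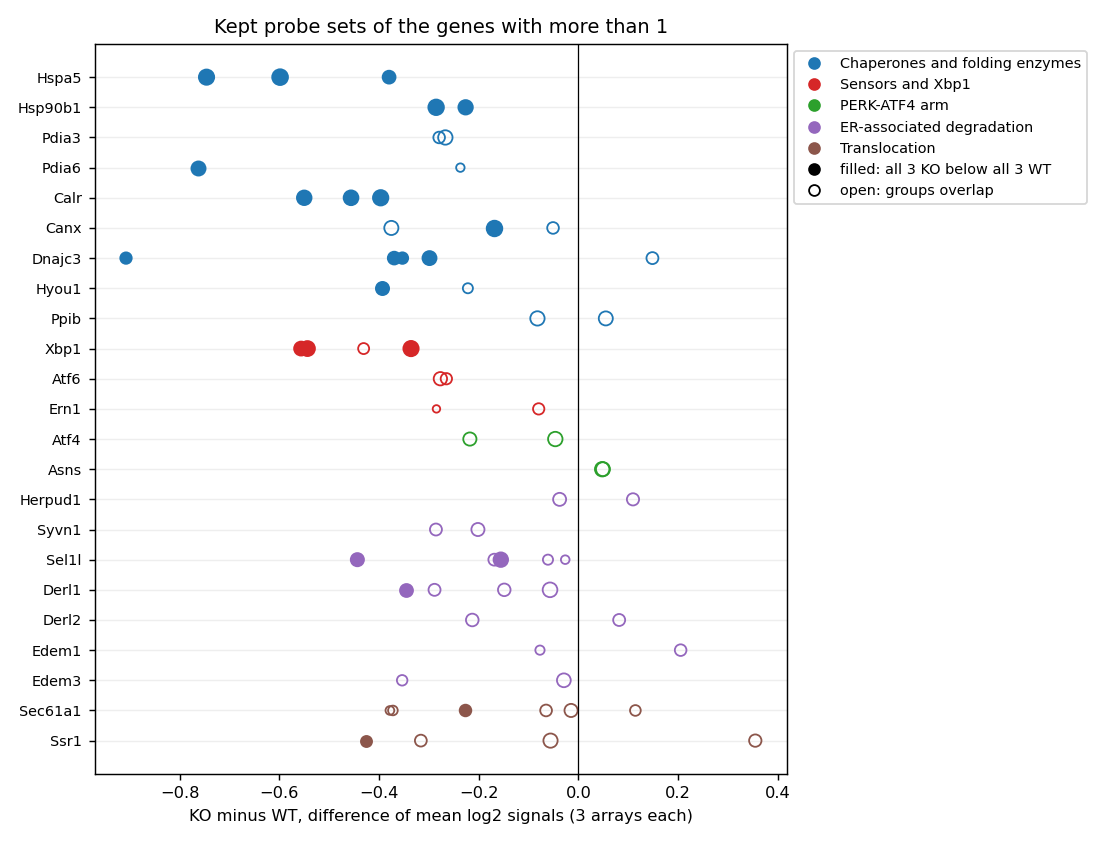
Difference of mean log2 signals, KO minus WT (x axis), of each kept probe set of the 23 genes with more than 1, coloured by class and sized by WT signal, filled where all 3 KO arrays are below all 3 WT arrays. All probe sets of Hspa5 (-0.75 to -0.38), Calr (-0.55 to -0.40) and Hsp90b1 are filled, and 3 of 4 of Xbp1 are.

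Other genes of the same pathways, taken from lists written out by function, had a median near that of all genes. Of 128 genes listed, 121 were measured, 58 were lower and 63 higher, and their median was 0.02. In 7 the KO arrays were all below WT (7.13% of all genes) and in 15 all above (9.56% of all genes). With all arrays 0 passed an adjusted p of 0.05 in limma (0.062% of all genes). An unadjusted p under 0.05 was reached by 10, 2 lower and 8 higher, against 7.48% of all genes. Without KO replicate 3 the median was 0.0038 and 1 gene passed, Ddit4, an inhibitor of mTOR signalling induced by stress (-0.81, adjusted p = 0.0350, against -0.37 with all arrays, where KO replicate 3 was the highest array). It was named after its values were seen. Other folding genes were lower in 14 of 25 (median -0.01), with the smallest p for Cnpy2 (0.37), Fkbp9, a prolyl isomerase (0.31), and Mogs, a glucosidase that trims new glycans (0.41). Other translocation genes were lower in 12 of 25 (median 0.05), with Spcs3, a signal peptidase subunit (-0.33), Ssr4, a TRAP subunit (0.30), and Ostc, an oligosaccharyltransferase subunit (-0.31).

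Other degradation genes were lower in 12 of 22 (median -0.02), with Jkamp (0.24), the lectin gene Erlec1 (0.29) and Fam8a1 (-0.17) at the smallest p. Other transducers were lower in 5 of 15 (median 0.05), with Mbtps1, a protease that cuts ATF6 (0.24), the eIF2 kinase gene Eif2ak1 (0.25) and Tmbim6 (0.26). Other ATF4 targets were lower in 15 of 34 (median 0.06), with Cebpb, a transcription factor gene (-0.44), Vldlr, a lipoprotein receptor gene (0.35), and the stress gene Nupr1 (0.53).

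The signals of other cell types that moved between the arrays are given here beside the chaperones. KO replicate 3, with the high thalamus markers, had the chaperone median closest to WT (-0.22), and without it the median difference was larger in size (-0.34 against -0.29). Markers of hippocampal neurons were also lower in KO, but the order of the KO arrays was not that of the chaperones (-0.32, -0.48 and -0.22). All 9 measured were lower on average (median -0.32), with medians of -0.14, -0.26 and -0.54 on KO replicates 1, 2 and 3, and their sum, given above, was below the WT range on each KO array. Their median was -0.16 without KO replicate 3, where 8 of 9 were lower, and their part in the chaperone result was not tested. The 4 measured red blood cell markers had medians of -3.38, -3.95 and -3.55 on the KO arrays, all far below WT, and their part in the chaperone result was not tested. The 9 measured markers of the choroid plexus (of 10), a secretory tissue, summed to 29951 to 35746 in WT and to 36746, 30422 and 17529 in KO replicates 1, 2 and 3. The marker that gives most of this sum, Ttr, which encodes transthyretin, had log2 signals of 14.83, 14.71 and 14.76 in WT and 14.60, 14.57 and 13.94 in KO, with every KO array below every WT array. The other markers did not all follow Ttr. Over the 9 markers, median deviations from the WT mean were 0.07, 0.98 and -1.04 in WT and 1.38, 0.29 and -1.99 in KO. With all arrays 6 of 9 were lower (median difference -0.31), and without KO replicate 3 only 1 was (median 0.85). The part of the choroid plexus in the chaperone result was not tested. The 6 measured markers of meninges and fibroblasts (of 7) summed to 2294 to 3082 in WT and to 6002, 4659 and 2495 in KO, and their part was not tested. An exact permutation test of 3 arrays against 3 cannot give a p under 0.1, and the number of arrays limits the precision of every value above.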

How the data were processed

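Hippocampus RNA of 3 WT and 3 KO samples was labelled with a 3′ IVT kit and hybridised to Affymetrix mouse arrays. The authors deposited log2 MAS5 signals for 45037 probe sets. MAS5 and affy are named in the submitters' notes. GeneSpring, removal of Absent probes and a 1.5-fold limit are named in the methods. Detection calls were not used here. The trimmed mean signal was 498 on every array but KO replicate 3 (497.5), and median log2 signals ran from 6.55 to 6.90.

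A probe set was kept if 3 or more of the 6 arrays put it above their 40th percentile. For a gene with several kept probe sets (single symbol only), the one with the highest mean was used. KO was compared with WT with R 4.3.3 and limma 3.58.1, using lmFit and eBayes(trend=TRUE) and Benjamini-Hochberg adjustment over all 12903 genes or 27408 probe sets. The fit was tested on simulated data with known changes. At an adjusted p under 0.05 in limma it recovered 46 of 100 genes changed by 1 log2 unit and 77 of 100 changed by 2. It made 5 false calls. Promoters came from RefSeq (GRCm38.p6). The 40 genes and all lists were chosen with earlier results of these data known, so classes are described by counts and medians without a test. Described with each array were members with an unadjusted p under 0.05 or without overlap, the sensors, Atf4, Ddit3 and Asns. Creld2 and Herpud1 were added after their values were seen. Of other pathway genes the 3 with the smallest p per class were named. Alternatives covered normalization, the filter, an offset, the variance model, array weights, a replicate block, the gene rule and leaving out each array.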

Additional observations from a re-analysis of the deposited data

How the results depend on the processing

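The number of arrays limits these results. Over all genes, 8 passed with all arrays, 5 after median centring, 4 with a replicate block, 3337 with array weights and 0 without a trend in the variance (980 at an unadjusted p under 0.05 in limma), and 0 to 53 passed when 1 array was left out. Members that passed numbered 17 with array weights and 0 to 4 when 1 array was left out (4 without KO replicate 3), and 0 in the other settings, where 9 or 10 had an unadjusted p under 0.05. Member probe sets that passed numbered 29 with array weights and 0 to 6 when 1 array was left out. With array weights 25.9% of all genes passed, and the share over all probe sets was not counted, so the 29 are not read as a result about the members. With the mean of all kept probe sets per gene, 2 members were 1.5-fold lower against 4, and 0 to 1 member was 1.5-fold higher when 1 array was left out. The chaperone median ran from -0.34 to -0.27 over all settings. When 1 array was left out, the median of the sensors and Xbp1 was -0.27 to 0.0076, that of the PERK-ATF4 arm -0.094 to 0.12, that of degradation -0.17 to -0.038 and that of translocation -0.050 to 0.091. With array weights the medians of the PERK-ATF4 arm and of degradation were -0.16 and -0.094, and with the mean of probe sets that of translocation was -0.11. Among the genes followed through every setting, directions turned for Eif2ak3 (-0.0058 after quantile normalization, -0.014 after median centring), Ddit3 (-0.16 with array weights) and Asns (-0.11 with array weights). When 1 array was left out, Ern1 ran from -0.24 to 0.11, Eif2ak3 from -0.11 to 0.16, Atf4 from -0.13 to 0.12, Ddit3 from -0.094 to 0.37 and Asns from -0.10 to 0.12. Of all 40 genes, Fkbp2 (-0.23), Ern1 (0.11), Ddit3 (-0.094), Ppp1r15a (-0.10), Edem2 (-0.19), Edem3 (0.070) and Ssr1 (0.033) turned without KO replicate 3. The cause was not tested. The labels do not pair the arrays by replicate number, and deviations of equal-numbered arrays correlated at -0.04, 0.07 and 0.13, against 0.20 for WT replicate 2 and KO replicate 1.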
